A study of Mus musculus with 30 samples.

Results

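CD8 T cells taken from MOC1 tumours of mice given an anti-CTLA-4 antibody were compared directly with those of mice given an anti-PD-1 antibody. MOC1 is a mouse oral squamous carcinoma line, and it was grown in C57BL/6J mice that received the antibodies, or an isotype antibody as the control, by intraperitoneal injection on days 3, 6 and 9 after tumour inoculation. The material was labelled as tumour-infiltrating T cells, run on 10x 5′ chemistry with receptor enrichment, with 1 RNA library and 1 receptor library per treatment. Cells were chosen by measured values: at least 300 genes, at most 10% mitochondrial UMIs, at least 1 UMI of Cd3d, Cd3e and Cd3g together, at least 2 UMIs of Cd8a and Cd8b1 together, no UMI of Cd4 or Foxp3, and exactly 1 of the 4 antibody hashtags of the library. This gave 3296 cells of 7766 barcodes, 1295 of 3890 from the anti-PD-1 library plus 2001 of 3876 from the anti-CTLA-4 library; the 3 MOC1 libraries hold 12709 barcodes, and the isotype library gave 697 such cells. Each tumour line is a single model, the number of mice behind a library and the meaning of the hashtags are not given in the sources used here, and with 1 library per treatment a difference between libraries and a difference between treatments cannot be told apart.

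Both antibodies target brakes on T cell activation. PD-1 is induced by stimulation through the T cell receptor and restrains it at the site of the antigen, whereas CTLA-4 competes with CD28 for shared ligands and is also abundant on regulatory CD4 T cells. Under persistent antigen, CD8 T cells pass into a state called exhaustion, marked by the transcription factor TOX and several inhibitory receptors, while killing by CD8 T cells rests on perforin and granzymes and their differentiation is steered by cytokines such as interleukin 12 and interleukin 2.

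The CD8 genes are part of the rule that chose the cells, so their values describe the gate and are no check of it. Both Cd8a and Cd8b1 were detected in 92.0% (anti-PD-1) and 95.5% (anti-CTLA-4) of the gated cells, and their summed level was 2449 to 2886 counts per 1000000 (CPM, UMIs of a gene per 1000000 UMIs of the sum) over the anti-PD-1 hashtags, against 2559 to 2729 CPM over the anti-CTLA-4 hashtags. Just inside the gate, 44 and 45 cells had exactly 2 UMIs of the CD8 genes, and just outside it 86 and 54 otherwise fitting cells had exactly 1. A further 206 and 202 cells were left out for Cd4 or Foxp3. The median cell held 6574 UMIs (anti-PD-1) or 5819 UMIs (anti-CTLA-4), and the 4 hashtags held 455, 388, 237 and 215 cells (anti-PD-1) and 438, 461, 702 and 400 cells (anti-CTLA-4). Counts were summed per hashtag, giving 1573428 to 3838572 UMIs per anti-PD-1 sum and 2720990 to 5103004 per anti-CTLA-4 sum. The 2 libraries shared 30 cell barcodes, 7 of them among the gated cells.

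The 4 hashtags of the anti-CTLA-4 library did not hold separate sets of clones. A clone is here the set of gated cells with the same V gene, J gene and nucleotide CDR3 of the alpha and beta chains. V and J genes are gene segments, and the CDR3 is the receptor stretch made by joining segments. Where a cell had several alpha or beta chains, the one with most UMIs was used. Of the clones of 2 or more cells, hashtags 1 and 2 of the anti-CTLA-4 library shared 58 of 67, or 86.6% of the hashtag with fewer (exact binomial interval 76.0 to 93.7%), and hashtags 3 and 4 shared 15 of 49, or 30.6% (18.3 to 45.4%). The other 4 pairs of that library shared 4.08 to 6.94%, and the 6 pairs of the anti-PD-1 library shared 0 to 9.68%. With the highest tag required to be at least 5 times the second, the first 2 values were 87.9% and 31.3%. T cells outside the gate gave the same picture, with 38 of 45 clones shared by hashtags 1 and 2 of the anti-CTLA-4 library and 0 clones shared by any pair of the anti-PD-1 library. In expression, anti-CTLA-4 hashtags 1 and 2 were the most alike pair, with an SD of the log2 ratio over 4968 genes of 0.18. Hashtags 3 and 4 were the least alike pair of that library, at 0.28, so that expression does not set them together as their clones do. The other pairs of the library were at 0.24 to 0.26, and the anti-PD-1 pairs at 0.24 to 0.32 over 3461 genes. Because of the shared clones, each count of genes is also given with hashtags 1 and 2, and 3 and 4, of the anti-CTLA-4 library summed, which leaves 4 sums against 2.

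**Figure D1:**
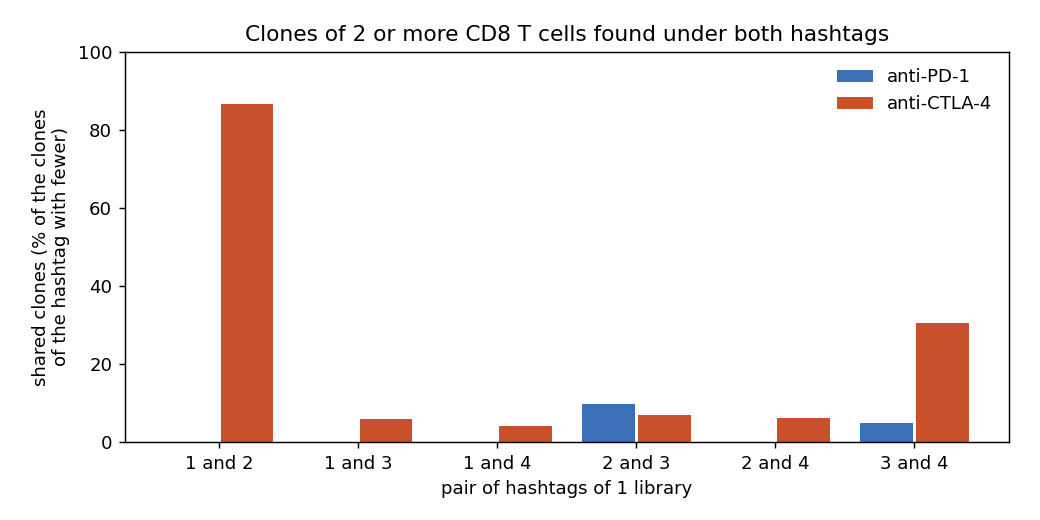
Share of clones of 2 or more gated CD8 T cells found under both hashtags of a pair, as a percentage of the clones of the hashtag with fewer, for the 6 pairs of each library (blue bars anti-PD-1, red bars anti-CTLA-4). Hashtags 1 and 2 of the anti-CTLA-4 library stand at 86.6% and hashtags 3 and 4 at 30.6%, while the anti-PD-1 pairs reach at most 9.68%.

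One beta chain was found in a large clone under each treatment, with alpha chains that differed, and the sequences are shown because these cells are compared between the treatments later. It was noticed after the data were seen. The largest anti-PD-1 clone (175 cells, all hashtag 1) and the fourth largest anti-CTLA-4 clone (39 cells, of which 2, 3, 9 and 25 carried hashtags 1 to 4) used the same beta chain of TRBV1 and TRBJ1-1 with an identical CDR3 of 30 bases. Their alpha chains both used TRAJ15, were assigned to TRAV7N-4 and TRAV7-4, and had CDR3s of 39 bases that differ by T8C, counted from 1 at the 5′ end with the anti-PD-1 base first. In the RefSeq annotation of GRCm38.p6, Trbv1 lies at chr6:40891296-40891885, Trbj1-1 at chr6:41533864-41533911, Traj15 at chr14:54204422-54204481, Trav7n-4 at chr14:53091346-53091875 and Trav7-4 at chr14:53461209-53461738. TRAV7N-4 and TRAV7-4 are close copies, so that the assignment of a cell to one of them is uncertain. The deposited nucleotide CDR3s read, 5′ to 3′ with the differing base in capitals,
beta, both treatments: tgcagtgacagggacacagaagtcttcttt
alpha, anti-PD-1: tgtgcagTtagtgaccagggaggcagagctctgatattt
alpha, anti-CTLA-4: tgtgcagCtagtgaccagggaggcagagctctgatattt
By the nucleotide sequences of both chains these are separate clones. The anti-CTLA-4 alpha sequence was also found in 1 cell with anti-PD-1, and the anti-PD-1 alpha sequence in none of the 43 anti-CTLA-4 cells with this beta chain and an alpha chain of TRAJ15. Whatever the alpha chain, the beta chain was seen in 215 gated cells with anti-PD-1, all under hashtag 1, in 48 with anti-CTLA-4 and in 1 with the isotype antibody.

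Expression differed widely between the treatments. Of 9068 genes tested with edgeR's quasi-likelihood test on the 4 and 4 sums, 1115 were higher with anti-CTLA-4 (12.3%) and 884 lower (9.75%) at a Benjamini-Hochberg adjusted p of 0.05 or less, and 3121 had an unadjusted p under that value. At least 2-fold differences were called for 239 genes higher (2.64%) and 205 lower (2.26%). With 4 sums against 2, 769 genes were higher and 590 lower, and of the genes first called 756 of 1115 and 553 of 884 were called again; among those of at least 2-fold the figures were 224 of 239 and 176 of 205. All of these genes kept their direction in that fit, which uses the same cells and counts and is therefore no separate check of direction. The median log2 fold change over all tested genes was 0.0039, and Cd8a and Cd8b1 themselves were not called. The p-values measure only the spread between hashtag sums, which may be technical.

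The largest of the ranked rises was that of Lmna, which encodes the nuclear lamina proteins lamin A and C. Its level was 22.9, 35.1, 30.5 and 25.3 CPM (anti-PD-1) against 354, 373, 349 and 409.8 CPM (anti-CTLA-4) over hashtags 1 to 4, 13.3-fold higher (log2 fold change 3.73 ± 0.12 (SE), adjusted p = 4.71e-09), and 38.5 to 73.7 CPM with the isotype antibody. The anti-CTLA-4 sums thus lay above every sum of both other libraries. Trat1, an adaptor of the T cell receptor complex, measured 5.47, 11.1, 6.36 and 12.03 CPM (anti-PD-1) against 90.6, 90.9, 73.7 and 60.6 CPM (anti-CTLA-4) (log2 fold change 3.23 ± 0.21 (SE), adjusted p = 1.66e-06). Anxa1, a calcium-dependent phospholipid-binding protein, was at 6.02 to 9.53 CPM (anti-PD-1) against 38.0 to 56.6 CPM (anti-CTLA-4) and differed 7.10-fold. The sums of the 2 treatments do not overlap for any ranked gene, since that was a condition for being ranked. Tesc, which encodes the calcium-binding protein tescalcin, was at 12.8 to 29.5 CPM (anti-PD-1) against 115 to 162 CPM (anti-CTLA-4) (log2 fold change 2.83 ± 0.19 (SE), adjusted p = 1.78e-06). Itgb3, an integrin beta chain, was 6.07-fold higher, at 2.61 to 8.90 CPM (anti-PD-1) against 30.6 to 45.0 CPM (anti-CTLA-4), and the transcription factor gene Runx1 was 4.78-fold higher, at 10.2 to 17.8 CPM (anti-PD-1) against 53.1 to 67.7 CPM (anti-CTLA-4). Dkkl1 and the water and glycerol channel gene Aqp3 completed the ranked rises outside the lists described next, with log2 fold changes of 2.24 ± 0.20 and 2.17 ± 0.19 (SE). The isotype mean lay below the anti-PD-1 mean for only 2 of the 12 ranked rises.

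**Figure D2:**
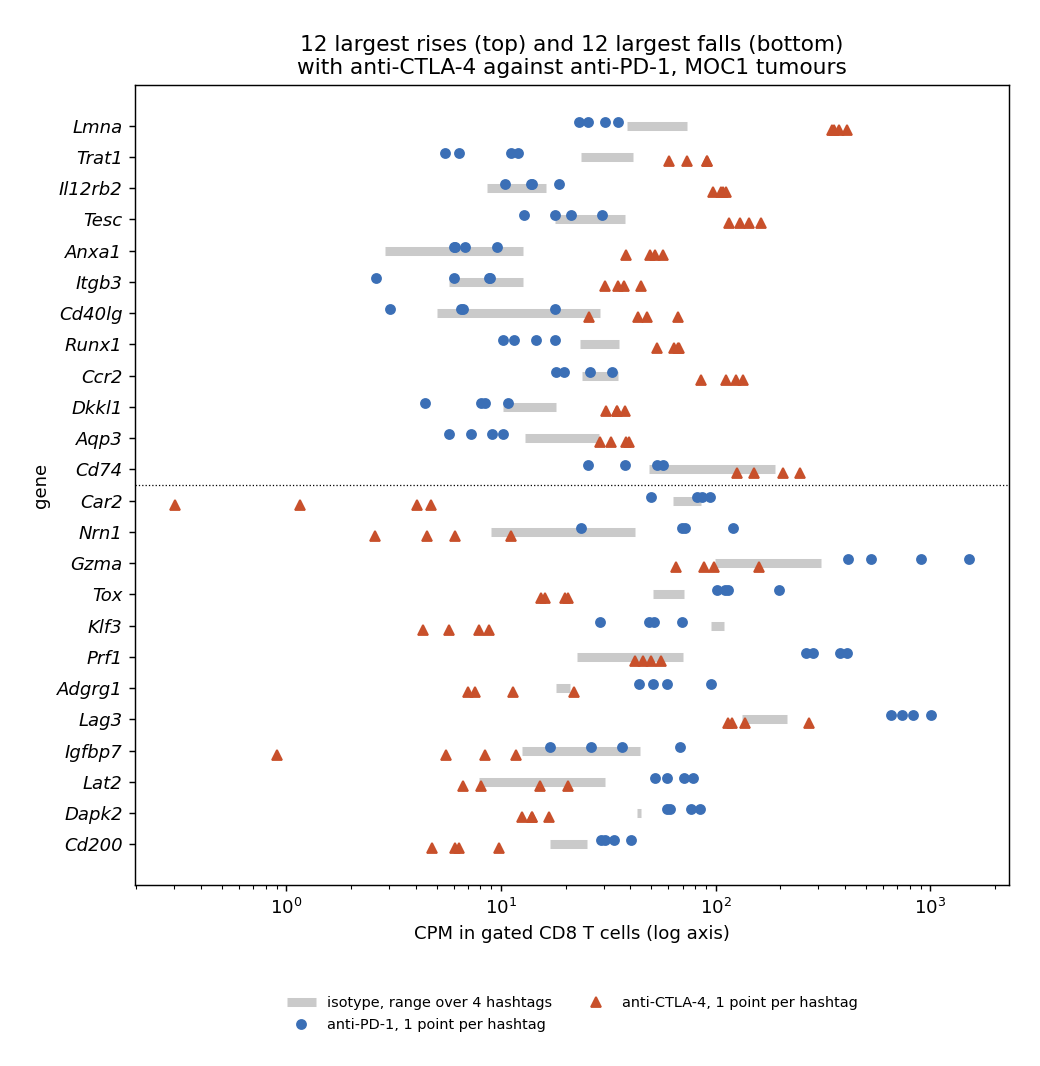
CPM on a log axis for the 12 largest rises and the 12 largest falls among called genes, 1 point per hashtag sum (blue circles anti-PD-1, red triangles anti-CTLA-4), with grey bars for the range of the 4 isotype sums. The treatments do not overlap for any of these genes, which was a condition for being ranked; Lmna lies at 22.9 to 35.1 CPM with anti-PD-1 and 349 to 409.8 CPM with anti-CTLA-4, and Prf1 at 264 to 408 CPM and 41.9 to 55.3 CPM.

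Among the ranked falls, Car2, which encodes carbonic anhydrase 2, had the largest log2 fold change. Its sums were 93.5, 49.9, 81.4 and 86.6 CPM (anti-PD-1) against 1.16, 0.302, 4.70 and 4.04 CPM (anti-CTLA-4), and the fitted difference was 27.9-fold (log2 fold change -4.80 ± 0.36 (SE), adjusted p = 4.09e-06), while the isotype sums were at 63.0 to 84.9 CPM. The anti-CTLA-4 sums were low and both other libraries high. Nrn1, the gene of the surface-anchored protein neuritin, stood at 23.4 to 120.1 CPM (anti-PD-1) against 2.57 to 11.2 CPM (anti-CTLA-4) (log2 fold change -3.33 ± 0.47 (SE), adjusted p = 0.000402). Hashtag 1 was the lowest of the anti-PD-1 sums for this gene, at 23.4 CPM. That it lay above the anti-CTLA-4 sums was a condition for being ranked. Adgrg1, an adhesion receptor also known as GPR56, was at 43.9 to 94.8 CPM (anti-PD-1) against 6.97 to 21.9 CPM (anti-CTLA-4) and fell 4.99-fold. Lat2, an adaptor related to LAT, was 4.85-fold lower, the kinase gene Dapk2 4.85-fold lower and Igfbp7, a binding protein of insulin-like growth factors, 4.90-fold lower. Igfbp7 had the least tight estimate of the ranked falls, with an SE of 0.50 on a log2 fold change of -2.29. The isotype mean lay below the anti-CTLA-4 mean for 1 of the 12 ranked falls. In GRCm38.p6 Lmna lies at chr3:88481148-88509932 and Car2 at chr3:14886269-14900770.

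Inhibitory receptors were mostly lower with anti-CTLA-4. Of 18 tested genes 10 were lower and 2 higher, with a median log2 fold change of -0.54, and all 12 were called again with 4 sums against 2. Here and in the lists that follow, a lone number in brackets after a gene is its log2 fold change. The counts per list stand beside 12.3% higher and 9.75% lower over all 9068 tested genes, and no list was tested against these shares. Lag3, a receptor that binds MHC class II, measured 1005, 655, 740.4 and 825 CPM (anti-PD-1) against 119, 114, 271 and 137 CPM (anti-CTLA-4), 4.95-fold lower (log2 fold change -2.31 ± 0.24 (SE), adjusted p = 4.61e-05), against 133 to 215 CPM with the isotype antibody. Hashtag 3 was the highest of the anti-CTLA-4 sums and the only one above the isotype range. Cd244, a receptor of the SLAM family, was 7.64-fold lower at 22.9 to 42.5 CPM (anti-PD-1) against 3.68 to 5.49 CPM (anti-CTLA-4). Cd200, whose product is the ligand of the inhibitory receptor CD200R, was 4.61-fold lower (log2 fold change -2.20 ± 0.20 (SE), adjusted p = 1.63e-05), and its receptor gene Cd200r1 had a log2 fold change of -1.73 (adjusted p = 7.12e-05). Entpd1, which encodes the ectoenzyme CD39, was at 59.1 to 91.4 CPM (anti-PD-1) against 24.5 to 28.7 CPM (anti-CTLA-4) (log2 fold change -1.44 ± 0.14 (SE), adjusted p = 2.82e-05). The 2 treatments did not overlap for any of these genes. Here and below, a lack of overlap adds no support of its own. Genes were named largely for a small p or for not overlapping, and the share without overlap over all tested genes is not given. Havcr2, the gene of TIM-3, was at 86.4 to 105 CPM (anti-PD-1) against 38.1 to 62.3 CPM (anti-CTLA-4) (log2 fold change -1.04, adjusted p = 0.000219), and Pdcd1, the gene of PD-1 itself, at 1072, 871, 728 and 783 CPM (anti-PD-1) against 438, 472, 661 and 404 CPM (anti-CTLA-4) (log2 fold change -0.79, adjusted p = 0.00198). Ctla4, in contrast, was at 472 to 620.3 CPM (anti-PD-1) against 423 to 494 CPM (anti-CTLA-4) and was not called (adjusted p = 0.0903), nor was Tigit (log2 fold change -0.08, adjusted p = 0.657). The 2 higher genes were Lilrb4a, an inhibitory receptor of the leukocyte immunoglobulin-like family (1.25), and Cd160, a receptor for the TNF receptor family member HVEM (0.46).

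Transcription factors linked to exhaustion and to activation moved in both directions. Of 20 tested genes 6 were higher and 6 lower, and the median was -0.04. Tox, the factor that marks exhausted CD8 T cells, was at 197, 114, 110.0 and 101 CPM (anti-PD-1) against 19.8, 16.0, 15.3 and 20.6 CPM (anti-CTLA-4), 7.40-fold lower (log2 fold change -2.89 ± 0.22 (SE), adjusted p = 4.09e-06), and at 50.9 to 71.1 CPM with the isotype antibody. Hashtag 1 was the highest anti-PD-1 sum, and the other 3 lay close together and all above both other libraries. The related factor gene Tox2 was 8.10-fold lower, from 10.8 to 22.9 CPM (anti-PD-1) against 0.906 to 4.04 CPM (anti-CTLA-4). Irf8, an interferon regulatory factor, was at 138 to 193 CPM (anti-PD-1) against 26.6 to 58.8 CPM (anti-CTLA-4) (log2 fold change -1.96 ± 0.20 (SE), adjusted p = 3.65e-05), and Ikzf2, which encodes Helios, had a log2 fold change of -0.89. Nfatc1 and Eomes were also lower, but with 4 sums against 2 their adjusted p became 0.0569 and 0.0532. The 6 higher genes are known to be induced by receptor stimulation: Nr4a1 (284, 242, 397 and 393 CPM (anti-PD-1) against 654, 668, 550.3 and 757 CPM (anti-CTLA-4), log2 fold change 1.03 ± 0.15 SE), Nr4a3 (0.92), Irf4 (1.17), Egr2 (1.06), Egr3 (1.74) and Bhlhe40 (0.69). Nr4a1 did not overlap between the treatments. Egr1 (log2 fold change 0.55, adjusted p = 0.0533) and Nr4a2 (0.37, 0.0638) did not pass the test, though Nr4a2 did with 4 sums against 2 (adjusted p = 0.0391).

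The genes of the killing machinery did not move as 1 block. Of 16 tested, 6 were lower, 3 higher and 7 not called, with a median of -0.20. Prf1, the gene of perforin, which opens pores in target cells, was at 381, 283, 264 and 408 CPM (anti-PD-1) against 49.96, 45.9, 55.3 and 41.9 CPM (anti-CTLA-4), 6.80-fold lower (log2 fold change -2.77 ± 0.15 (SE), adjusted p = 4.67e-07). The anti-CTLA-4 sums lay within the isotype range of 22.6 to 70.4 CPM, and the anti-PD-1 sums lay above it. Gzma, a tryptase-like granzyme, was at 415, 903, 1513 and 530.0 CPM (anti-PD-1) against 159, 88.2, 97.6 and 65.4 CPM (anti-CTLA-4) (log2 fold change -3.01 ± 0.38 (SE), adjusted p = 0.000158), with a wide spread among the anti-PD-1 hashtags. Nkg7, a granule membrane protein, and Cst7, an inhibitor of the proteases that mature granzymes, were 1.61-fold and 1.67-fold lower. Gzmb was at 806 to 1487 CPM (anti-PD-1) against 484 to 822 CPM (anti-CTLA-4), and its call (log2 fold change -0.71, adjusted p = 0.0216) was lost with 4 sums against 2 (adjusted p = 0.0933). Gzmc and Gzmf, granzymes of strongly activated cells, were higher instead, at 5.21 to 35.5 CPM (anti-PD-1) against 25.4 to 112 CPM (anti-CTLA-4) and at 1.27 to 12.03 CPM (anti-PD-1) against 7.55 to 37.8 CPM (anti-CTLA-4). Both overlapped between treatments, with the higher anti-CTLA-4 values under hashtags 3 and 4. The serglycin gene Srgn had a log2 fold change of 0.28 and was not called with 4 sums against 2 (adjusted p = 0.0985). Gzmk (log2 fold change -0.86, adjusted p = 0.0722) and the death ligand gene Fasl (-0.02, 0.937) did not pass.

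**Figure D3:**
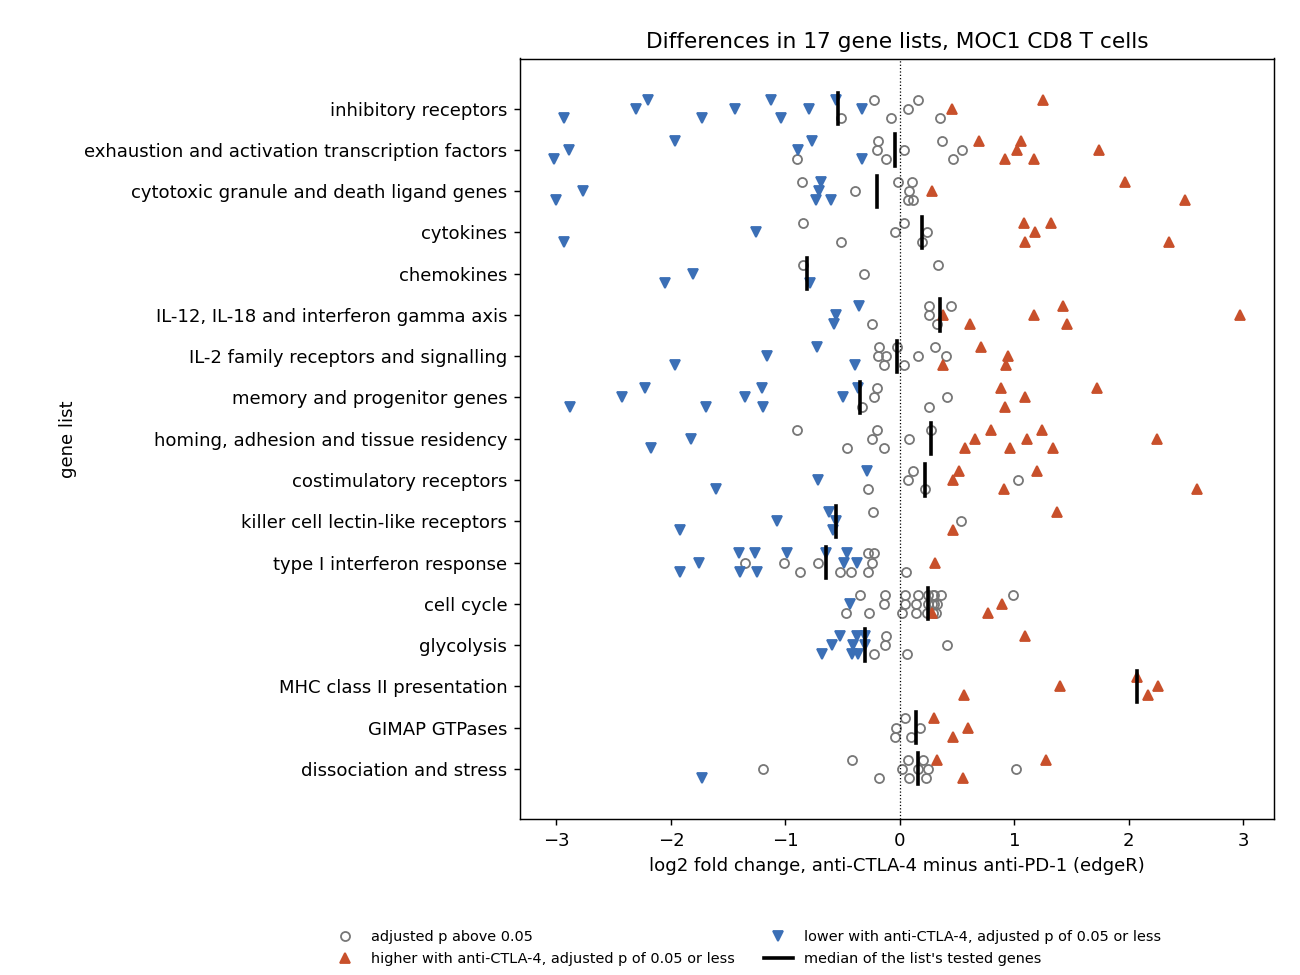
Log2 fold change of each tested gene in 17 lists, anti-CTLA-4 minus anti-PD-1, with filled triangles for genes at an adjusted p of 0.05 or less and a black bar for the median of each list. The MHC class II list lies to the right with a median of 2.07, and the inhibitory receptor, chemokine and type I interferon lists lie to the left with medians of -0.54, -0.81 and -0.65.

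Among 13 cytokine genes, 5 were higher with anti-CTLA-4 and 2 lower, all of them also with 4 sums against 2. Ltb, a membrane-bound lymphotoxin chain, was at 444, 438, 476 and 566 CPM (anti-PD-1) against 971, 986, 998 and 1080.5 CPM (anti-CTLA-4) (log2 fold change 1.09 ± 0.08 (SE), adjusted p = 4.5e-06). Tnf was at 19.6 to 27.1 CPM (anti-PD-1) against 41.7 to 55.2 CPM (anti-CTLA-4), 2.27-fold higher, and Tnfsf14, the gene of LIGHT, 2.50-fold higher. These 3 genes did not overlap between the treatments. The growth factor genes Csf1 and Csf2 had log2 fold changes of 1.08 (adjusted p = 0.00145) and 2.35 (adjusted p = 0.00821), the latter at 1.35 to 6.02 CPM (anti-PD-1) against 5.44 to 26.5 CPM (anti-CTLA-4). Tnfsf4, which encodes OX40 ligand, and Areg, a ligand of the EGF receptor, were lower (-2.94 and -1.26). Ifng, the hallmark cytokine of these cells, was at 166 to 235 CPM (anti-PD-1) against 182 to 303 CPM (anti-CTLA-4) and was not called (log2 fold change 0.24, adjusted p = 0.291).

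Chemokine genes ran the other way, with 3 of 6 tested lower, none higher and a median of -0.81. Ccl3 was at 236, 204, 205 and 420.5 CPM (anti-PD-1) against 99.3, 36.9, 47.6 and 70.2 CPM (anti-CTLA-4) (log2 fold change -2.05 ± 0.30 (SE), adjusted p = 0.000451). Ccl4, a related chemokine gene, was at 473 to 758 CPM (anti-PD-1) against 255 to 479.6 CPM (anti-CTLA-4) and overlapped between the treatments (log2 fold change -0.79, adjusted p = 0.00735). Xcl1, which attracts cross-presenting dendritic cells through XCR1, was at 298, 699.6, 499 and 511 CPM (anti-PD-1) against 82.5, 28.4, 161 and 293 CPM (anti-CTLA-4) (log2 fold change -1.81 ± 0.49 (SE), adjusted p = 0.0198). Hashtag 4 was the anti-CTLA-4 sum nearest to the anti-PD-1 sums for Xcl1, at 293 CPM. Ccl5 was at 4537 to 9783 CPM (anti-PD-1) against 4915 to 7229 CPM (anti-CTLA-4) and was not called (adjusted p = 0.255).

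Receptor chains for interleukin 12 and interleukin 18 were higher with anti-CTLA-4. Of the 14 tested genes of the interleukin 12, interleukin 18 and interferon gamma axis 6 were higher and 3 lower, with a median of 0.35. Il12rb2, the signalling chain of the interleukin 12 receptor, was at 10.4, 13.8, 14.0 and 18.6 CPM (anti-PD-1) against 112, 108, 97.0 and 106 CPM (anti-CTLA-4), 7.83-fold higher (log2 fold change 2.97 ± 0.14 (SE), adjusted p = 1.3e-07). Its isotype sums were at 8.59 to 16.2 CPM, in the same range as the anti-PD-1 sums. Il18rap and Il18r1, the chains of the interleukin 18 receptor, were at 23.5 to 34.7 CPM (anti-PD-1) against 75.6 to 82.8 CPM (anti-CTLA-4) (log2 fold change 1.42 ± 0.10 (SE), adjusted p = 3.37e-06) and at 44.3 to 57.8 CPM (anti-PD-1) against 101 to 123 CPM (anti-CTLA-4) (log2 fold change 1.17). Cxcr3, the receptor for interferon-induced chemokines, was at 44.3 to 78.9 CPM (anti-PD-1) against 148 to 195 CPM (anti-CTLA-4) (log2 fold change 1.46, adjusted p = 3.86e-05). Neither the 2 interleukin 18 receptor genes nor Cxcr3 overlapped between treatments. Ifngr1 was 1.53-fold higher (log2 fold change 0.61 ± 0.06 SE). The other receptor chain gene, Il12rb1, and Stat4, which transmits interleukin 12 signals, were not called, and Stat4 had a log2 fold change of 0.32 (adjusted p = 0.0561). Tbx21, the gene of T-bet, was higher (0.37), though not called with 4 sums against 2 (adjusted p = 0.0562). Runx3 (-0.58) and the feedback inhibitor gene Socs1 (-0.35) were lower, Socs1 again not with 4 sums against 2 (adjusted p = 0.0577).

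Among 17 genes of interleukin 2 family signalling 4 were higher and 4 lower, with a median of -0.02. Bcl2, which protects from cell death, was at 44.5, 84.0, 59.1 and 77.6 CPM (anti-PD-1) against 13.4, 13.6, 20.6 and 18.0 CPM (anti-CTLA-4) (log2 fold change -1.97 ± 0.21 (SE), adjusted p = 4.77e-05), against 135 to 197 CPM with the isotype antibody. The anti-CTLA-4 sums were the lowest of the 3 libraries and did not overlap with the anti-PD-1 sums. Socs3, a feedback inhibitor, and Stat3 were 2.23-fold and 1.65-fold lower, and Il2rb had a log2 fold change of -0.39. Higher were Il2ra, the high-affinity chain of the interleukin 2 receptor (22.6 to 48.1 CPM (anti-PD-1) against 54.4 to 64.3 CPM (anti-CTLA-4), log2 fold change 0.95), and the target genes Cish (0.71) and Pim1 (0.93), with Mcl1 at 0.38.

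Genes of memory and progenitor T cells moved in both directions. Of 18 tested, 9 were lower and 4 higher, with a median of -0.35. Klf3, a transcriptional repressor, was at 28.9, 51.6, 69.3 and 48.7 CPM (anti-PD-1) against 7.84, 5.74, 4.31 and 8.82 CPM (anti-CTLA-4) (log2 fold change -2.88 ± 0.28 (SE), adjusted p = 2.91e-05), and at 94.5 to 109.7 CPM with the isotype antibody. The lymph node homing gene Ccr7 (106 to 213 CPM (anti-PD-1) against 46.5 to 77.8 CPM (anti-CTLA-4), log2 fold change -1.35) was lower, as were Klf2 (-1.20), Cd27 (-0.50) and Dapl1 (-2.23). Klf2 drives S1pr1, the receptor for leaving tissue, which was lower too (-1.20) but not called with 4 sums against 2 (adjusted p = 0.063), like Id3 (adjusted p = 0.052) and Foxo1 (adjusted p = 0.0685). Ly6c2, a surface protein of effector and memory cells, was at 361, 579, 421 and 441 CPM (anti-PD-1) against 1639.5, 1648, 950.4 and 1624 CPM (anti-CTLA-4) (log2 fold change 1.72 ± 0.18 (SE), adjusted p = 3.91e-05). Hashtag 3 was the lowest anti-CTLA-4 sum, and every anti-CTLA-4 sum was above every anti-PD-1 sum. Satb1, a chromatin organiser (2.13-fold), Il7r, the receptor for interleukin 7 (75.3 to 137 CPM (anti-PD-1) against 171 to 230.4 CPM (anti-CTLA-4), log2 fold change 0.92), and Lef1 (0.89) were higher as well. Tcf7, which encodes the factor TCF-1 of progenitor cells, was at 22.9, 54.6, 58.5 and 55.9 CPM (anti-PD-1) against 55.8, 66.5, 52.7 and 68.4 CPM (anti-CTLA-4) and was not called (log2 fold change 0.41, adjusted p = 0.236). Hashtag 1 was the lowest anti-PD-1 sum for Tcf7, and the ranges of the treatments overlapped.

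Of 17 tested homing and adhesion genes 8 were higher, 2 lower and 7 not called, with a median of 0.27. Ccr2, a receptor for monocyte chemoattractant chemokines, was at 19.5, 32.7, 26.1 and 18.0 CPM (anti-PD-1) against 111, 134, 85.2 and 125 CPM (anti-CTLA-4) (log2 fold change 2.24 ± 0.19 (SE), adjusted p = 9.81e-06). Itgal, the alpha chain of LFA-1, was 2.36-fold higher at 84.1 to 111 CPM (anti-PD-1) against 188 to 254 CPM (anti-CTLA-4), whereas Itga4, the alpha chain of VLA-4, was 3.54-fold lower at 64.4 to 94.1 CPM (anti-PD-1) against 14.5 to 30.9 CPM (anti-CTLA-4). The 2 treatments did not overlap for any of these 3 genes. The partner chain genes Itgb7 (0.96) and Itgb1 (0.65) were higher, as were Cd44 (0.79), Cxcr4 (1.11) and Zfp683, the gene of the residency factor Hobit (1.34). Cd69 was called higher (0.57), but not with 4 sums against 2 (adjusted p = 0.0922). Cx3cr1, the fractalkine receptor, was lower, at 34.9 to 43.9 CPM (anti-PD-1) against 4.04 to 13.9 CPM (anti-CTLA-4) (log2 fold change -2.17, adjusted p = 7.51e-05). The residency genes Cxcr6 (-0.24, adjusted p = 0.107) and Itgae (-0.46, adjusted p = 0.398) did not pass.

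Of 13 costimulatory receptor genes 5 were higher and 3 lower, with a median of 0.22. Cd226, an activating receptor that competes with TIGIT, was at 56.8, 59.4, 77.5 and 84.2 CPM (anti-PD-1) against 159, 168, 134 and 156 CPM (anti-CTLA-4) (log2 fold change 1.20 ± 0.13 (SE), adjusted p = 5.25e-05). Cd40lg, best known as the helper signal of CD4 T cells, was at 6.51, 3.04, 17.8 and 6.62 CPM (anti-PD-1) against 43.3, 47.7, 25.7 and 66.5 CPM (anti-CTLA-4) (log2 fold change 2.60 ± 0.40 (SE), adjusted p = 0.000688). Anti-PD-1 hashtag 3 and anti-CTLA-4 hashtag 3 came nearest to each other, at 17.8 and 25.7 CPM. Cd2 (1.38-fold), Slamf1 (log2 fold change 0.91) and Cd28 (0.52) were higher. Tnfrsf9, the gene of 4-1BB, was at 516, 395, 541 and 695 CPM (anti-PD-1) against 145, 141, 276 and 130.1 CPM (anti-CTLA-4) (log2 fold change -1.60 ± 0.22 (SE), adjusted p = 0.000352). Tnfrsf4, the gene of OX40, and Slamf7 were also lower, and with 4 sums against 2 were not called (adjusted p = 0.086 and 0.0893). Of 9 tested genes in the list of killer cell lectin-like receptors, 5 were lower and 2 higher, with a median of -0.56. That list includes Fcer1g, an adaptor gene that is not itself such a receptor. Klrd1 and Klrc1, which together form the inhibitory receptor CD94/NKG2A, were 1.503-fold and 1.47-fold lower, and the adaptor gene Fcer1g was at 36.9 to 149 CPM (anti-PD-1) against 10.3 to 31.7 CPM (anti-CTLA-4) (log2 fold change -1.92 ± 0.36 (SE), adjusted p = 0.00229). Klrk1, the activating receptor NKG2D (0.47), and Klrg1 (1.38) were higher.

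Genes of the type I interferon response were lower with anti-CTLA-4 in 11 of 23 tested cases, higher in 1 and not called in 11, with a median of -0.65. With 4 sums against 2, 10 were lower and 0 higher. Ifi27l2a was at 662, 1366, 1035 and 1008 CPM (anti-PD-1) against 326, 427, 378 and 388 CPM (anti-CTLA-4) (log2 fold change -1.40 ± 0.17 (SE), adjusted p = 0.000106). Isg20, an exonuclease, was 2.63-fold lower at 141 to 163 CPM (anti-PD-1) against 40.1 to 78.3 CPM (anti-CTLA-4), and Oas1a, a sensor of double-stranded RNA, 3.78-fold lower at 13.0 to 21.9 CPM (anti-PD-1) against 1.74 to 7.72 CPM (anti-CTLA-4). No overlap between treatments was seen for these 3 genes. The regulator gene Irf7 had a log2 fold change of -0.46 (adjusted p = 0.019), while Isg15 was at 139 to 215 CPM (anti-PD-1) against 89.4 to 207 CPM (anti-CTLA-4) and did not pass (log2 fold change -0.23, adjusted p = 0.489).

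All 5 tested MHC class II presentation genes were higher, with a median of 2.07. Cd74, the invariant chain, was at 25.3, 37.8, 56.6 and 52.9 CPM (anti-PD-1) against 205, 149.9, 247 and 125 CPM (anti-CTLA-4) (log2 fold change 2.17 ± 0.25 (SE), adjusted p = 8.47e-05), and at 48.7 to 188 CPM with the isotype antibody. The class II chain genes H2-Aa and H2-Eb1 were at 0.602 to 15.3 CPM (anti-PD-1) against 9.19 to 47.6 CPM (anti-CTLA-4) and at 2.08 to 8.90 CPM (anti-PD-1) against 5.88 to 36.3 CPM (anti-CTLA-4), and both overlapped between the treatments. H2-Eb1 turned to a log2 fold change of -0.12 when cells with a cycling transcript were left out. H2-DMa was not called with 4 sums against 2 (adjusted p = 0.0656). These genes are also expressed by antigen-presenting cells, whose markers were summed. The summed level of 13 myeloid markers was 172 to 202 CPM (anti-PD-1) against 169 to 225 CPM (anti-CTLA-4), with 1 and 3 markers at 0. Most of that sum was Cst3, at means of 161 and 170 CPM. Only 2 of the 13 markers were high enough to be tested, so the sum says little about the others. The 8 B and plasma cell markers summed to 82.8 to 104 CPM and 26.1 to 54.0 CPM, with Ms4a1 at 0 in both. They were led by Ighm, at means of 63.7 and 24.5 CPM. The part of antigen-presenting cells in the class II values was not tested.

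Cell cycle genes gave few calls, 3 higher and 1 lower of 27, with a median of 0.24. Hmgb2, a chromatin protein of dividing cells, was at 638 to 925 CPM (anti-PD-1) against 1204 to 1670.2 CPM (anti-CTLA-4) (log2 fold change 0.89 ± 0.12 (SE), adjusted p = 0.000278), Mki67 at 36.2 to 64.1 CPM (anti-PD-1) against 50.7 to 106 CPM (anti-CTLA-4) (log2 fold change 0.77 ± 0.22 (SE), adjusted p = 0.0235) and Pcna at a log2 fold change of 0.28, not called with 4 sums against 2 (adjusted p = 0.112). Of these 3 genes only Hmgb2 did not overlap. The replication helicase gene Mcm2 was lower (log2 fold change -0.43 ± 0.13 (SE), adjusted p = 0.0277), but it was not called with 4 sums against 2 (adjusted p = 0.0773) and turned to 0.39 within clones of 1 cell. In 15 glycolysis genes 9 were lower and 1 higher, by small amounts and with a median of -0.30: Pkm was 1.33-fold lower, Tpi1 1.60-fold lower and Gapdh at a log2 fold change of -0.30, whereas the glucose transporter gene Slc2a3 was 2.13-fold higher at 17.5 to 37.3 CPM (anti-PD-1) against 54.3 to 59.8 CPM (anti-CTLA-4). Of 8 GIMAP genes, small GTPases of lymphocytes, 3 were higher: Gimap3 (0.59), Gimap6 (0.46) and Gimap4 (0.30, not called with 4 sums against 2, adjusted p = 0.101). The 15 genes that respond to tissue dissociation and heat gave 3 higher and 1 lower, Fosb at 1.28, Dnaja1 at 0.55, Hsp90aa1 at 0.32, and Hspa1a at 63.3 to 254 CPM (anti-PD-1) against 33.1 to 42.3 CPM (anti-CTLA-4) (-1.73). Hsp90aa1 was not called with 4 sums against 2 (adjusted p = 0.132). Over all tested genes 12.3% were higher and 9.75% lower, so the few calls in the dissociation list are not read as a result about that list.

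Markers of other cells were summed over the gated cells as well. Those of regulatory and helper CD4 T cells, led by Ctla4, summed to 755 to 1026 CPM (anti-PD-1) against 685 to 824 CPM (anti-CTLA-4), with Cd4 and Foxp3 at 0 by the gate. The 8 natural killer cell markers summed to 552 to 1595 CPM (anti-PD-1) against 130 to 220 CPM (anti-CTLA-4), led by Gzma, and their defining gene Ncr1 was at 0 in both. Markers of gamma-delta T cells summed to 34.9 to 44.3 CPM and 10.6 to 25.0 CPM, and carcinoma markers to 38.5 to 78.2 CPM and 22.5 to 43.0 CPM, with Krt15 and Trp63 at 0 in both. The part of such cells in the values of these genes was not tested.

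The share of cells in which a gene was detected ran with the summed levels for Prf1, Tox, Lag3 and Il12rb2, but not for Gzmb and Ccl5, nor for Cxcr6, which neither measure called. Cells were thinned to 2000 UMIs each, which left out 34 anti-PD-1 cells and 69 anti-CTLA-4 cells. Per hashtag, Prf1 was then detected in 26.2% ± 4.54 of cells with anti-PD-1 (SD, n = 4 hashtags) and in 8.36% ± 0.88 with anti-CTLA-4 (exact two-sided permutation test p = 0.0286, the smallest that 4 against 4 allows). Without thinning it was detected in 48.3% and 23.5% of all gated cells. Tox was detected in 19.7% ± 5.36 and 3.18% ± 0.56 of thinned cells (47.1% and 8.85% unthinned), Lag3 in 54.7% ± 7.58 and 20.6% ± 5.96 (72.0% and 41.0%), and Il12rb2 in 2.55% ± 0.49 and 18.9% ± 1.35 (7.72% and 44.8%), each with the same exact permutation p. Cells with both Pdcd1 and Havcr2 made up 11.2% ± 1.91 and 4.50% ± 1.77 of thinned cells (33.6% and 18.2% unthinned), and those with both Tcf7 and Pdcd1 2.55% ± 0.73 and 4.63% ± 0.87 (8.26% and 16.8%). Gzmb, called lower by its sums, was detected in 39.8% ± 8.05 and 41.4% ± 5.44 of thinned cells (exact permutation p = 0.7143, and 53.1% and 54.7% unthinned). For Pdcd1 and Mki67, also called by their sums, the shares ran the same way but did not pass. Pdcd1 was detected in 60.7% ± 7.49 and 46.8% ± 6.49 of thinned cells, and Mki67 in 4.67% ± 1.24 and 7.71% ± 2.29 (exact permutation p = 0.0857 for each). Ccl5, whose sums were not called, was detected in 72.3% ± 8.80 and 90.0% ± 1.68 (exact permutation p = 0.0286; 82.5% and 94.4%), which goes against its lower mean level, so no order was read from it. Ifng, also not called by its sums, was detected in 21.6% ± 1.18 and 29.2% ± 4.02 (exact permutation p = 0.0286; 42.7% and 52.0%). Those with Gzmk and no Havcr2 made up 25.2% ± 10.4 and 16.3% ± 3.25 (exact permutation p = 0.2). Over the 21 shares compared, the smallest p corresponds to an adjusted p of 0.0429, and no share could go below 0.0571 with hashtags 1 and 2 of the anti-CTLA-4 library counted once, or below 0.1333 with 3 and 4 counted once as well. In cells with both Cd4 and Foxp3, in which perforin is usually low, Prf1 was detected in 2.43% of 242 thinned cells with anti-PD-1 (median 5498.5 UMIs) and, with anti-CTLA-4, in 0 of 28 unthinned cells (median 5246.5 UMIs), which allows a share of up to 10.7%.

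The gate took 44.5, 45.5, 35.5 and 25.1% of the T cells under anti-PD-1 hashtags 1 to 4 and 55.0, 59.9, 65.0 and 49.8% under those of anti-CTLA-4. The 2 ranges do not overlap; since the gate is the rule itself, the shares describe the cells and were not used as evidence. A cycling transcript, meaning at least 1 UMI of 7 genes of dividing cells, was found in 16.0% ± 2.47 of thinned anti-PD-1 cells and 20.4% ± 4.19 of thinned anti-CTLA-4 cells (SD, n = 4), a difference within the spread of the hashtags (exact permutation p = 0.1429). It was found in 26.2 to 32.5% and 28.0 to 37.7% of unthinned cells.

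More clones of 10 or more cells were counted in the anti-CTLA-4 library, which also had more cells with both chains. In the anti-PD-1 library 1 clone dominated hashtag 1. Of cells with both chains, 1089 and 1627, 466 and 610 clones were formed, and 12 and 33 of these held 10 or more cells. These counts were not made at equal numbers of cells. Clones were counted over all hashtags of a library, so cells of anti-CTLA-4 hashtags 1 and 2 were often joined. The largest anti-PD-1 clone took 16.1% of the anti-PD-1 cells with both chains (exact binomial interval 13.9 to 18.4%). Under hashtag 1 it took 44.0% (39.0 to 49.0%). With the highest tag at least 5 times the second, the largest anti-PD-1 clone held 132 of 992 cells, or 13.3%. With anti-CTLA-4 the largest took 4.73% (3.75 to 5.88%). Clones of 2 or more cells held 78.6, 64.7, 60.4 and 55.7% of the anti-PD-1 cells and 70.8, 73.9, 78.5 and 68.0% of the anti-CTLA-4 cells, a difference of 7.93 percentage points within the spread of the hashtags (exact permutation p = 0.2286). At an equal number of cells per hashtag, with clones counted within the hashtag, the means were 60.5% and 59.6% (exact permutation p = 1). More than 1 beta chain was read in 69 of 1197 gated anti-PD-1 cells (5.76%, 4.51 to 7.24%) and in 297 of 1823 gated anti-CTLA-4 cells (16.3%, 14.6 to 18.1%). Without these cells 903 genes were called higher and 811 lower. Intervals cover counting error only, and cells of a clone are not independent.

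The leading differences were also present in cells whose receptor was seen once and in those of expanded clones. Among clones of 1, all 24 ranked genes differed in the same direction as in the whole, but these cells are part of the sums that chose the genes. Prf1 was at 151 and 36.4 CPM in clones of 1 (anti-PD-1 and anti-CTLA-4) and at 434 and 56.1 CPM in clones of 2 or more. Differences between clone sizes were not tested. Lag3 was at 477 and 123 CPM in clones of 1 and at 1024 and 199 CPM in larger ones, and Tox at 73.2 and 15.6 CPM and 179 and 17.9 CPM. Klf3 ran the other way, at 90.2 and 13.8 CPM in clones of 1 and 15.7 and 2.09 CPM in larger ones. Lmna and Il12rb2 with anti-CTLA-4 were nearly level, at 364 and 365 CPM and at 101 and 106 CPM. Tests restricted to clones of 1 called 395 genes higher and 344 lower, on fewer cells.

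**Figure D4:**
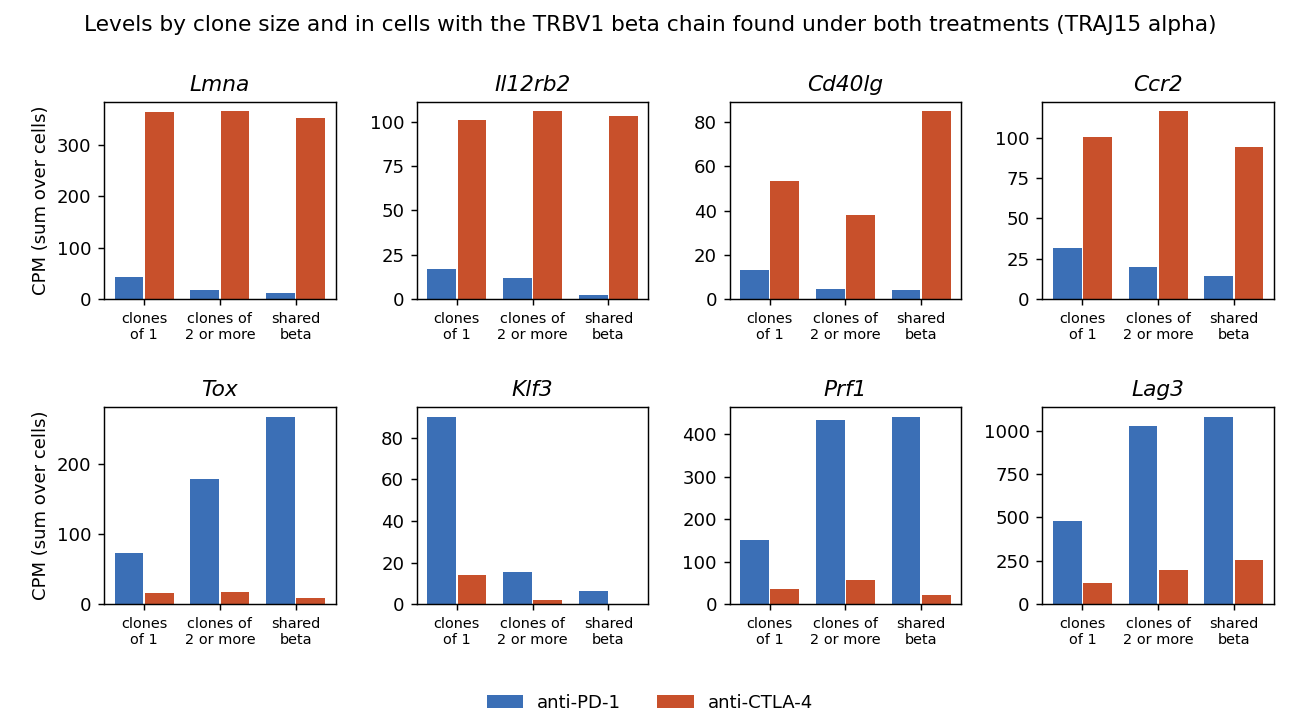
CPM of 8 ranked genes over all cells in clones of 1, in clones of 2 or more and in cells with the TRBV1 beta chain found under both treatments and an alpha chain of TRAJ15, whose sequence mostly differs between the treatments (blue bars anti-PD-1, red bars anti-CTLA-4; bars are single sums with no error). Prf1 stands at 151 CPM in clones of 1 and 434 CPM in larger clones with anti-PD-1, and at 36.4 and 56.1 CPM with anti-CTLA-4.

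Cells with the beta chain printed above and an alpha chain of TRAJ15, 176 from the anti-PD-1 and 43 from the anti-CTLA-4 library (of these, 4 had another alpha chain, of TRAV6-4), were then compared. They held 1697626 UMIs (anti-PD-1, all of hashtag 1) and 329527 UMIs (anti-CTLA-4), so there was no replicate on the anti-PD-1 side and no test was made; intervals are exact Poisson intervals of the counts. Prf1 was at 441 CPM (anti-PD-1, 410.2 to 474) against 21.2 CPM (anti-CTLA-4, 8.54 to 43.8), and Tox at 268 CPM (anti-PD-1, 244 to 294) against 9.10 CPM (anti-CTLA-4, 1.88 to 26.6). Lmna was at 12.4 CPM (anti-PD-1, 7.66 to 18.9) against 352 CPM (anti-CTLA-4, 291 to 422) and Il12rb2 at 2.36 CPM (anti-PD-1, 0.642 to 6.03) against 103 CPM (anti-CTLA-4, 71.5 to 144). The intervals do not overlap for these 4 genes. Car2 was at 123 CPM (106 to 140.4) with anti-PD-1 and had 0 UMIs with anti-CTLA-4, where the interval reaches up to 11.2 CPM. Of the 24 ranked genes 23 differed in the same direction as in all gated cells, the exception being Igfbp7 at 0.589 CPM (anti-PD-1, 0.0149 to 3.28) against 12.1 CPM (anti-CTLA-4, 3.31 to 31.1). These cells are part of the sums, and without them 993 genes were called higher and 997 lower.

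CD8 T cells of MOC1E1 tumours, which the choice of genes had not used, gave a separate comparison of the same 2 antibodies. MOC1E1 is another tumour line of the series, its libraries were labelled as immune cells with no hashtag named, and 733 anti-PD-1 cells and 1342 anti-CTLA-4 cells passed the same gate, with 1 library each and hence no test. Of the 24 ranked genes 22 differed in the same direction, 14 of them by at least 2-fold on the scale of CPM + 1. Lmna was at 8.66 CPM (anti-PD-1, 6.27 to 11.7) against 29.7 CPM (anti-CTLA-4, 26.0 to 33.9), Il12rb2 at 15.9 CPM (anti-PD-1, 12.6 to 19.8) against 51.3 CPM (anti-CTLA-4, 46.4 to 56.6) and Itgb3 at 5.44 CPM (anti-PD-1, 3.58 to 7.92) against 35.7 CPM (anti-CTLA-4, 31.6 to 40.2). Prf1 was at 257 CPM (anti-PD-1, 243 to 271) against 86.4 CPM (anti-CTLA-4, 79.9 to 93.2), Tox at 135 CPM (anti-PD-1, 125 to 146) against 39.6 CPM (anti-CTLA-4, 35.3 to 44.3) and Klf3 at 70.3 CPM (anti-PD-1, 63.1 to 78.1) against 11.4 CPM (anti-CTLA-4, 9.17 to 14.1). For each of these 6 genes the intervals, which cover counting error only, did not overlap. Gzma, at 1289 CPM (anti-PD-1, 1258 to 1321) against 1284 CPM (anti-CTLA-4, 1259 to 1309.9), and Lag3, at 363 CPM (anti-PD-1, 346 to 379.8) against 339 CPM (anti-CTLA-4, 326 to 352), were counted in the same direction but their intervals overlapped. So did those of Trat1, at 8.46 CPM (anti-PD-1, 6.10 to 11.4) against 11.6 CPM (anti-CTLA-4, 9.28 to 14.2). Dapk2, at 63.1 CPM (anti-PD-1, 56.3 to 70.5) against 52.2 CPM (anti-CTLA-4, 47.2 to 57.6), was a further such gene. The exceptions were Cd74, at 2376 CPM (anti-PD-1, 2333 to 2419) against 191 CPM (anti-CTLA-4, 182 to 201), and Adgrg1, at 30.6 CPM (anti-PD-1, 26.0 to 35.9) against 39.2 CPM (anti-CTLA-4, 34.9 to 43.9), the latter with overlapping intervals. Cd74 was not alone: all 5 MHC class II genes called higher in MOC1 were lower with anti-CTLA-4 in MOC1E1, with H2-Aa at 804 CPM (anti-PD-1, 779 to 829) against 69.6 CPM (anti-CTLA-4, 63.8 to 75.8) and H2-Eb1 at 658 CPM (anti-PD-1, 636 to 681) against 50.9 CPM (anti-CTLA-4, 46.0 to 56.2). The summed level of 13 myeloid markers in the gated MOC1E1 cells was 2030 CPM with anti-PD-1 and 423 CPM with anti-CTLA-4, none of them at 0, and Fcer1g, which myeloid cells also express, was at 425 CPM (anti-PD-1, 407 to 444) against 96.0 CPM (anti-CTLA-4, 89.2 to 103). The part of such cells in these values was not tested. The 8 B and plasma cell markers summed to 175 and 40.0 CPM there, and the 8 natural killer cell markers to 2084 and 1474 CPM. By list, the called genes that ran in the same direction in MOC1E1 were 11 of 12 inhibitory receptor genes, 11 of 12 exhaustion and activation factor genes, 8 of 9 granule genes, 10 of 10 homing genes and 10 of 12 type I interferon genes. For the cytokine, chemokine, interleukin 2, costimulatory and cell cycle lists these were all of the called genes, 7, 3, 8, 8 and 4. In the remaining lists they were 12 of 13 memory genes, 7 of 9 interleukin 12 axis genes and 3 of 4 dissociation genes. They were also 6 of 10 glycolysis genes, 4 of 7 genes of the lectin-like receptor list and 0 of 3 GIMAP genes. Nr4a1 was lower with anti-CTLA-4 in MOC1E1, at 74.3 CPM (anti-PD-1, 67.0 to 82.3) against 54.5 CPM (anti-CTLA-4, 49.5 to 60.0). Havcr2 was level, at 72.3 CPM (anti-PD-1, 65.0 to 80.2) against 73.3 CPM (anti-CTLA-4, 67.3 to 79.6). Further exceptions named above were Tbx21, Runx3, Lef1, Klrd1, Klrg1, Isg20, Gapdh and Dnaja1. Of the genes at least 2-fold higher in MOC1 and listed in the MOC1E1 table, receptor and immunoglobulin segments and mitochondrial, ribosomal protein, Rik and Gm genes left out, 175 of 218 were higher there too, and of those at least 2-fold lower 162 of 183 were lower; over all 8824 tested genes listed, 45.7% were higher and 54.3% lower.

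**Figure D5:**
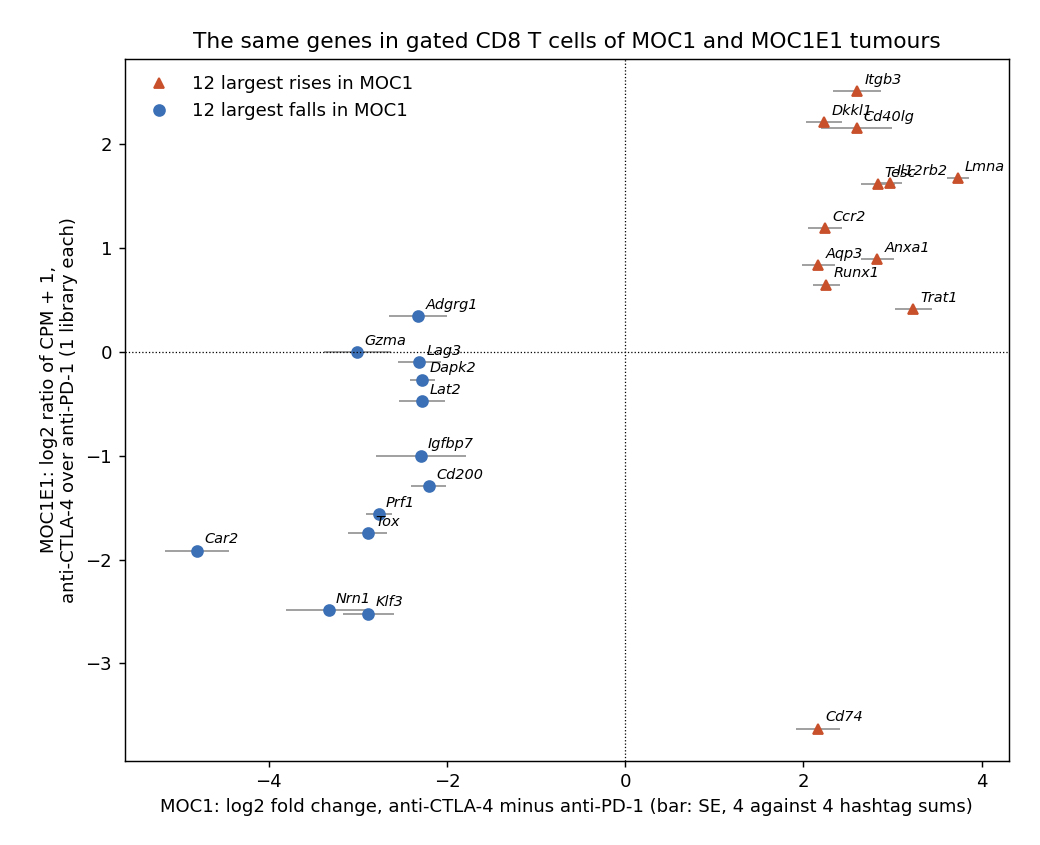
Log2 fold change in MOC1 (x axis, bars SE over 4 against 4 hashtag sums) against the log2 ratio of CPM + 1 in MOC1E1 (y axis, 1 library per treatment, no error) for the 24 ranked genes. Rises lie in the upper right apart from Cd74 at -3.63, and falls in the lower left apart from Adgrg1 at 0.35 and Gzma, which lies on the zero line.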

How the data were processed

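The deposited MOC1 matrices hold whole-number UMI counts per gene, hashtag and barcode, per the file headers, which give software version 3.1.0; Cell Ranger 3.0.2 and the builds mm10 and GRCh38 stand in the submitters' processing notes, with no role given. The receptor files list V and J genes and CDR3s per contig, and the MOC1E1 table whole-number counts per cell. Isotype cells were treated alike, as background. Of 30 samples in the series 8 were used; the others were not analysed here.

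Hashtags were called with an Otsu threshold on the log10 count of each tag (scikit-image 0.26.0), and gated cells with 0 tags (4 and 19) or 2 or more (54 and 69) were left out; no doublet caller was run, so doublets within a hashtag remain. Gene counts were summed per hashtag and tested with edgeR 4.0.16 (R 4.3.3; TMM, filterByExpr, glmQLFit and glmQLFTest), with Benjamini-Hochberg adjustment over all genes; DESeq2 1.42.0 was an alternative. The TMM factors were 0.970 to 1.017. On simulated counts from these means with 4 sums a side (8934 genes), 85.7% of genes raised by 1 on the log2 scale and 35.5% of those raised by 0.5 were recovered. Of 8738 unchanged genes 10 were called. The simulated sums were independent, whereas anti-CTLA-4 hashtags share clones, so these rates may not hold for the real sums. Shares were compared with exact permutation tests over hashtags (scipy 1.17.1); thinned shares are exact expectations. Intervals are 95% and cover counting error only.

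The cells, gene lists and tests were chosen with earlier results of these data known. Genes were ranked by log2 fold change, and the first 12 in each direction are named, where the gene was called, averaged at least 20 CPM and showed no overlap between the 4 and 4 sums, leaving out the genes of the gate, receptor and immunoglobulin segments and Rik, Gm, mitochondrial and ribosomal protein genes. Also named are the 3 called genes of smallest p from each list with 3 or more calls; other list members are named to describe a list. A planned test of the share of T cells in the gate is not given, since the gate chose the cells. The alternatives without the shared TRBV1 beta chain, without cells of more than 1 beta chain and with a stricter MOC1E1 gate, and the merging of anti-CTLA-4 hashtags 1 and 2 alone were chosen after seeing the data. Sequencing of the reads, alignment settings and any batch are not given in the sources used here. Some genes of the lists count in the list totals but are not reported here by name.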

Additional observations from a re-analysis of the deposited data

Results flagged for a closer look

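In 6 of 144 groups of 4 hashtags checked, 1 sum stood far from the other 3, where chance alone gives about 1 in 20. Tox was at 197 CPM under anti-PD-1 hashtag 1, the hashtag with the largest clone, against 101 to 114 CPM under the others. Ccl3 was at 420.5 CPM under anti-PD-1 hashtag 4, against 204 to 236 CPM. Tpi1 was at 424 CPM under anti-PD-1 hashtag 2, against 494 to 506 CPM. Under anti-CTLA-4 hashtag 3, Lag3 was at 271 CPM against 114 to 137 CPM, Tnfrsf9 at 276 CPM against 130.1 to 145 CPM, and Ly6c2 at 950.4 CPM against 1624 to 1648 CPM. For each of these 6 genes the difference between treatments was called with and without that hashtag.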

How the results depend on the processing

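The counts of genes were within 1.5 times the reported ones under all alternatives but these: restricted to clones of 1 cell, 395 genes were higher and 344 lower, 128 and 112 of them by at least 2-fold, on fewer cells, and without a filter on low counts 334 were at least 2-fold lower, where more genes were tested. Leaving out each hashtag in turn gave 795 to 1159 genes higher, 637 to 906 lower, 212 to 287 at least 2-fold higher and 200 to 264 at least 2-fold lower. DESeq2 gave 848 and 687 genes higher and lower. Upper-quartile scaling gave 947 and 1096, so that the share of calls that were higher moved from 55.8% to 46.4%. Of the 68 named genes 49 kept direction and call throughout; Mcm2 turned to 0.39 within clones of 1 (adjusted p = 0.371) and H2-Eb1 to -0.12 without cycling cells (adjusted p = 0.91), the cause of which was not tested. The difference in the clonal share was 4.87 to 12.5 percentage points without single hashtags and -0.89 at equal cells per hashtag. The difference in the cycling share was 3.20 to 6.35 points; that in the share of T cells in the gate, which has no test because the gate chose the cells, was 19.8 points and 15.6 to 22.4 points without single hashtags. The MOC1E1 count stayed at 22 of 24 genes with at least 4 UMIs of the CD8 genes. No paired analysis was possible because hashtag numbers are not tied to mice or to each other across libraries in the labels, and the test is between 2 libraries. Depth limits genes such as Gzmf, Csf2 and H2-Aa, whose sums hold few UMIs.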

Other observations

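Use of beta V genes differed between the libraries by cells more than by clones. TRBV19 was used by 342 of 1627 cells with anti-CTLA-4 (21.0%, exact binomial interval 19.1 to 23.1%) and by 72 of 1089 with anti-PD-1 (6.61%, 5.21 to 8.25%), and by 90 of 610 clones (14.8%, 12.03 to 17.8%) and 55 of 466 clones (11.8%, 9.02 to 15.1%). TRBV1 was used by 20.4% and 3.93% of cells with anti-PD-1 and anti-CTLA-4, but by 3.65% and 3.11% of clones. TRBV5 was used by 38 of 466 clones with anti-PD-1 (8.15%, 5.84 to 11.0%) and 25 of 610 with anti-CTLA-4 (4.10%, 2.67 to 5.99%). These are single libraries per treatment, and the intervals cover counting error only.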
